A study of Macaca fascicularis with 86 samples.

Results

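The regions described here are the SOX2-rich pieces of 2 gastrulating crab-eating macaque embryos at embryonic day 18 (E18), compared between low-numbered and high-numbered sections. They were selected on SOX2, a transcription factor of pluripotent epiblast: a region was taken where SOX2 reached 20 TPM, a unit that gives a gene's share of the transcripts scaled by its length. This held for 31 of the 50 E18 regions, out of 86 regions in the series. Early sections were sections 1 and 2 of embryo 1 and sections 1 to 3 of embryo 2, with 14 of the 31 regions. Late sections were sections 3 and 4 of embryo 1 and sections 4 to 6 of embryo 2, with the other 17 regions. Early and late refer to the section number in the labels and not to developmental time. The labels do not say at which end of the embryo the numbering starts, and they name no germ layer, sex, genotype or treatment.

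The study mapped expression in space by Geo-seq, in which small areas of a cryosection are cut out with a laser and sequenced, here with 5 to 50 cells per region and polyadenylated RNA. Embryo 1 gave 4 early and 6 late regions and embryo 2 gave 10 early and 11 late regions, from 5 early and 5 late sections. Regions of a section are neighbouring pieces of the same embryo. P-values computed over regions treat these pieces as independent and may be too small for that reason. The remaining 19 E18 regions (7 early, 12 late) had less SOX2 and were used only to see where the 31 regions differed from them. In such bulk samples, fewer cells of a type and less RNA per cell cannot be told apart.

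The epiblast is the layer from which the embryo proper arises. During gastrulation its cells leave through the primitive streak, which is marked by TBXT, MIXL1 and EOMES. The front end of the streak forms the node, or organiser, a signalling centre marked by GSC, FOXA2 and CHRD. Cells that leave there form definitive endoderm and axial mesoderm and secrete inhibitors of WNT, NODAL and BMP signals, among them CER1 and DKK1. Anterior epiblast next to these sources keeps OTX2 and HESX1, which are needed for the head.

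SOX2 itself ranged from 20.5 to 256 TPM in early regions (median 74.1) and from 22.1 to 217 TPM in late regions (median 82.1). These values chose the regions and support nothing further. Just inside the threshold stood regions at 20.5, 20.95, 22.1 and 24.1 TPM, and just outside it regions at 18.3, 19.4, 19.9 and 19.9 TPM. Among pluripotency genes that the threshold did not use, L1TD1, an RNA-binding protein of pluripotent cells, had 60.3 to 363 TPM in early regions and 67.5 to 444 TPM in late regions, with medians of 236 and 231 TPM. The de novo DNA methyltransferase DNMT3B had medians of 140 and 149 TPM in early and late regions, against 39.98 TPM in the other E18 regions. SOX3 reached 1 TPM in 0 of the 31 regions.

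Not every region had epiblast markers alone. In 4 of them TFAP2A, a factor of amnion and surface ectoderm, reached 20 TPM together with amnion or mesenchyme genes. The early ones were embryo 1 section 2 sector 1, with 97.96 TPM of TFAP2A and 59.7 TPM of ISL1, and embryo 2 section 1 sector 5, with 64.6 TPM of TFAP2A, 162 TPM of GABRP and 320 TPM of the collagen gene COL3A1. The late ones were sector 1 of section 3 and sector 4 of section 4 of embryo 1, with 926 and 1586 TPM of COL3A1. In the first of these NANOG stood at 0.704 TPM. Over 17 epiblast genes the mean log2(TPM + 1) was 5.23 and 3.74 in the early ones, against a median of 5.28 over early regions. In the late ones it was 3.09 and 4.19, against a median of 5.06 over late regions. A further pair of embryo 1 regions had high hypoblast markers. APOA1, an apolipoprotein of that layer, had 2043 TPM in section 1 sector 3 (early) and 3436 TPM in section 4 sector 2 (late). For the organiser genes, OTX2 and the gene lists, values without these regions are given beside the results.

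**Figure D1:**
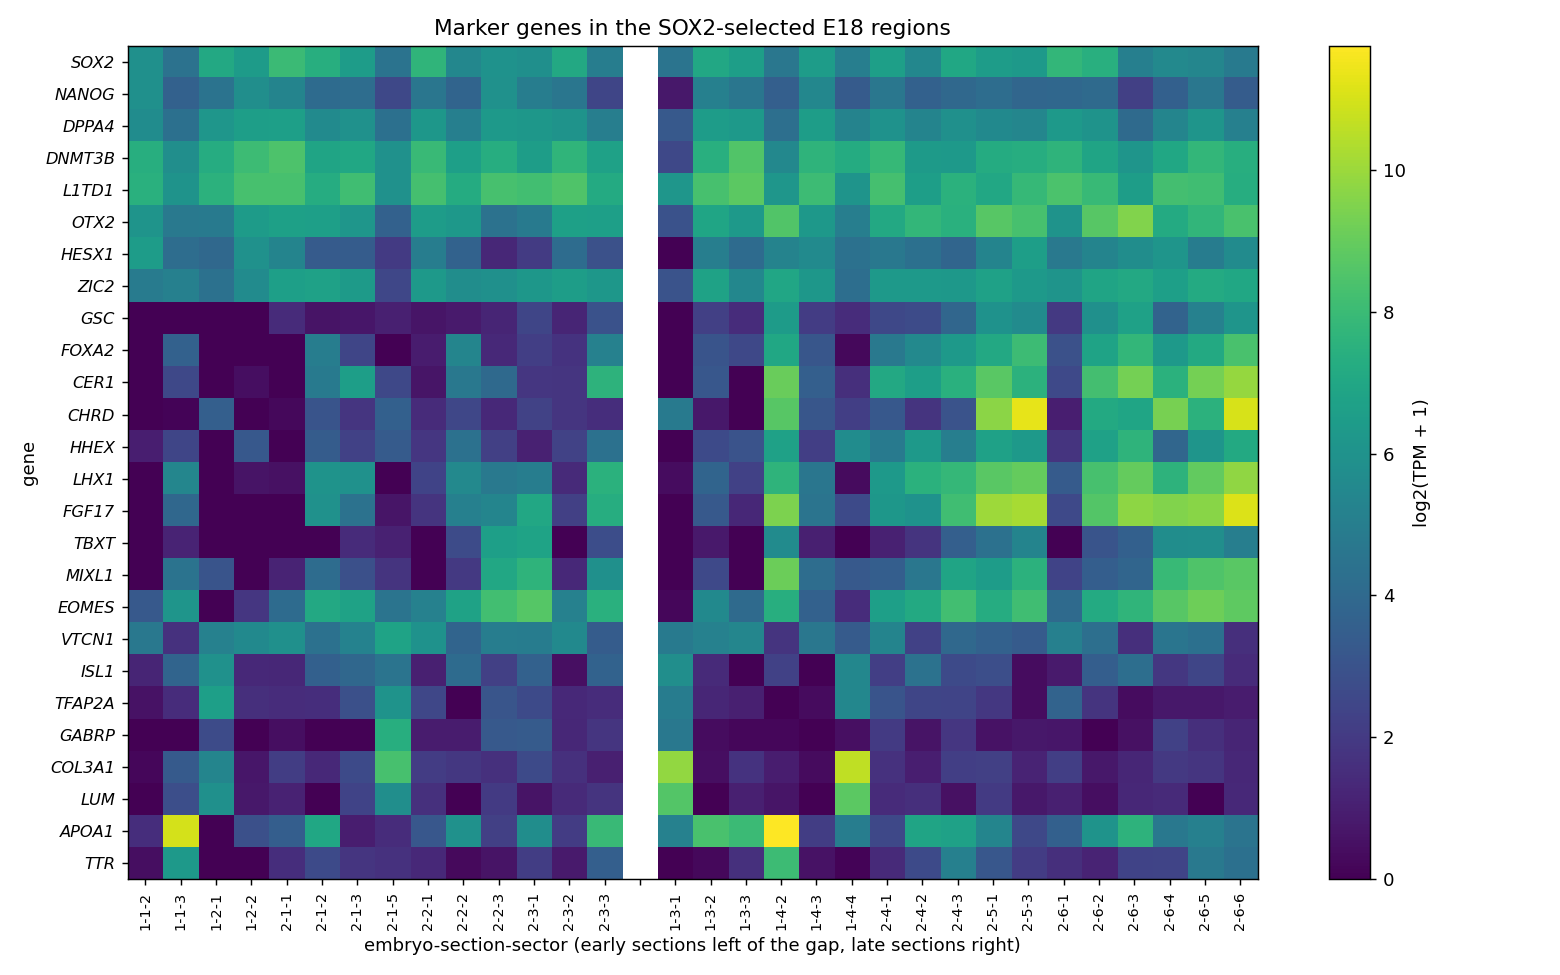
Levels of marker genes (rows) in the 31 SOX2-selected E18 regions (columns, named by embryo, section and sector), as log2(TPM + 1) on the colour scale. Early sections are left of the gap and late sections right. GSC stands at 35.3 TPM or more in 7 late regions: section 4 sector 2 of embryo 1 and, in embryo 2, both regions of section 5 and sectors 2, 3, 5 and 6 of section 6. COL3A1 stands out in 3 regions.

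The number of genes at 1 TPM or more was 9781 to 13550 in early regions and 7815 to 13958 in late regions. Section means differed by 156.5 genes, early minus late (exact permutation of section labels within embryo, two-sided p = 0.617). Mitochondrially encoded genes held 11.2% to 47.2% of the summed TPM in early regions and 8.91% to 48.2% in late regions, a difference of -1.45 percentage points (exact permutation p = 0.767). Depth is unknown, since TPM keeps no read counts.

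The main comparison asked which genes differed between early and late sections within these regions. GSC, a homeobox gene of the organiser, was lower in early sections, and QRFPR, a neuropeptide receptor gene of low level, was higher. They were the only genes past an adjusted p of 0.05 among 15232 tested, which is 0.0131% (limma on log2(TPM + 1) with embryo as a block and Benjamini-Hochberg adjustment). At an unadjusted p under 0.05 stood 1270 genes (8.34%), 696 of them lower in early sections (4.57%) and 574 higher (3.77%). The median difference over all genes was 0.03 on the log2 scale.

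GSC had 0 to 6.73 TPM in early regions (median 0.735) and 0 to 103 TPM in late regions (median 12.5). It was listed at 0 in all 4 early regions of embryo 1, while the late regions of that embryo had 0, 1.78, 1.78, 3.21, 3.68 and 87.1 TPM. In embryo 2 it stood at 0.528 to 6.73 TPM in early regions (median 1.20) and at 2.89 to 103 TPM in late regions (median 35.3). The groups overlapped, and 9 of 17 late regions lay above the highest early one. The difference was -2.95 ± 0.49 on the log2 scale (SE, 95% interval -3.95 to -1.96, limma adjusted p = 0.0118), at -2.28 in embryo 1 and -3.26 in embryo 2. Permuting the section labels within embryo, a test added after its value was seen, gave an exact two-sided p of 0.0167, the smallest that 120 arrangements allow.

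The high values were not spread evenly over the late sections. In embryo 2, section 4 had 4.87, 5.35 and 13.8 TPM, section 5 had 49.8 and 62.4 TPM, and section 6 had 2.89 to 103 TPM. Its early sections reached at most 1.72 TPM in section 1, 1.33 TPM in section 2 and 6.73 TPM in section 3. In embryo 1 the value of 87.1 TPM came from section 4 sector 2, the region with the most APOA1. Without both APOA1-rich regions the GSC difference was -2.78 (limma adjusted p = 0.00695), and without the 4 TFAP2A-rich regions -3.19 (adjusted p = 0.00890). With the levels of the hypoblast, mesenchyme and amnion lists as covariates it was -2.67 (limma adjusted p = 0.0185).

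The call on GSC was kept with an estimated correlation within sections (-2.99, limma adjusted p = 0.00315). The call was lost where sections rather than regions were the unit (-2.86, limma adjusted p = 0.307) and without the replicate block on embryo (-2.83, adjusted p = 0.105). It was also lost without embryo 2 (limma adjusted p = 0.818) or without section 1, 2, 5 or 6 of that embryo (adjusted p 0.197, 0.204, 0.0787 and 0.360).

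**Figure D2:**
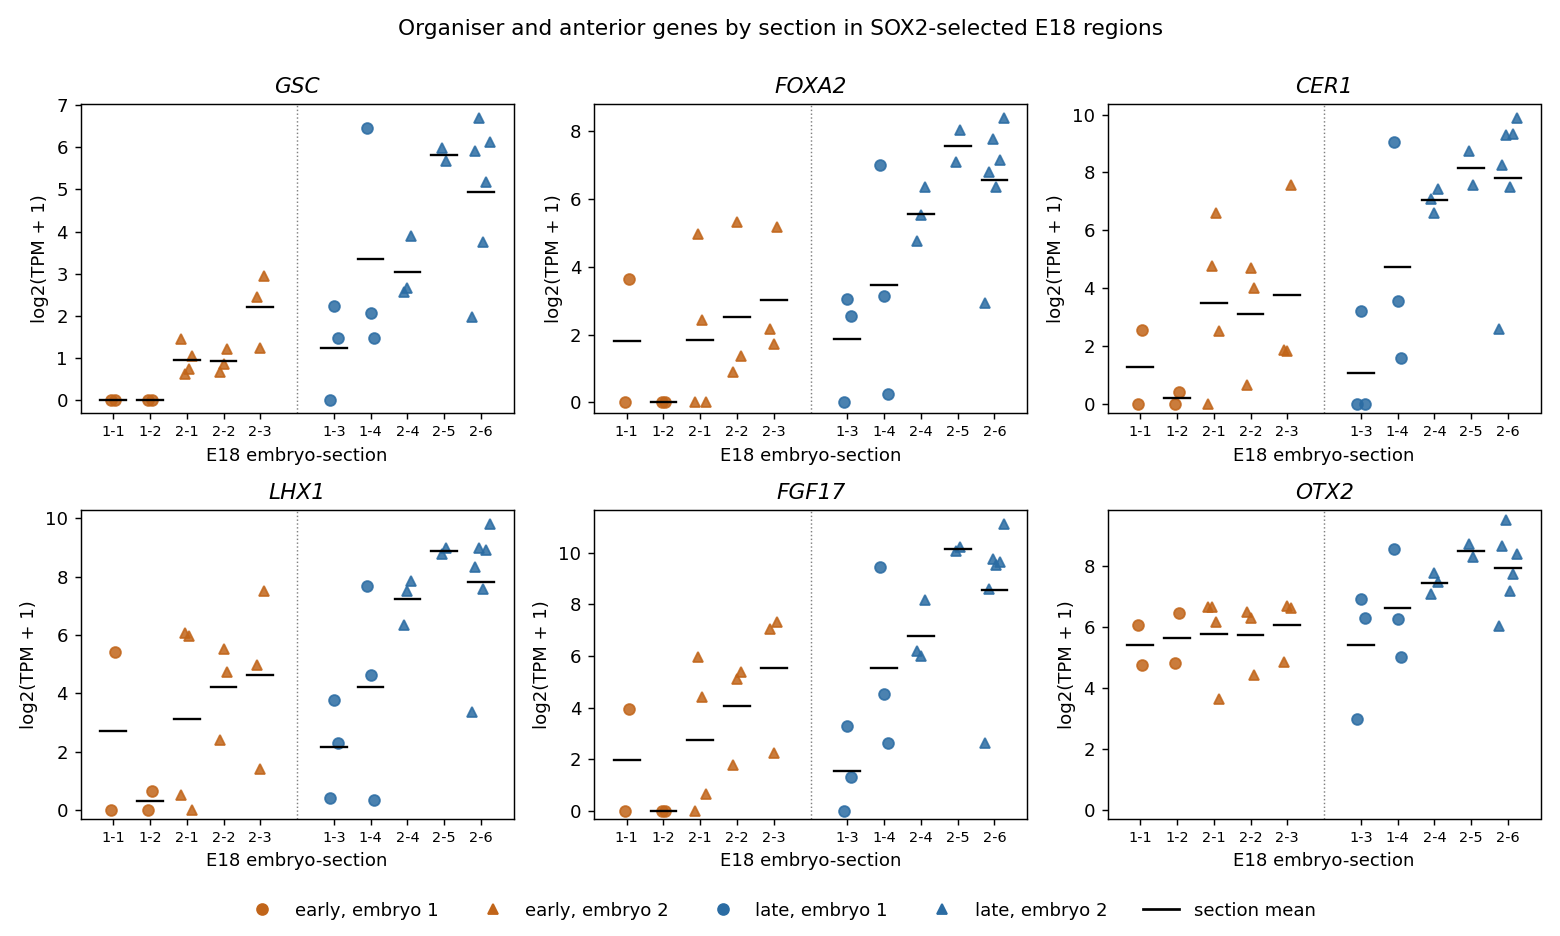
Levels of 6 organiser and anterior genes as log2(TPM + 1) by E18 embryo and section, early sections left of the dotted line and late sections right. Each point is a region (circles embryo 1, triangles embryo 2) and each bar is a section mean. GSC lies at or below 6.73 TPM in every early region, and late regions range from 0 to 103 TPM.

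QRFPR, the receptor of the neuropeptide QRFP, had 0 to 3.54 TPM in early regions (median 1.38) and 0 to 0.689 TPM in late regions, where 8 of 17 were listed at 0. Of the 14 early regions, 10 lay above the highest late one. The difference was 0.93 ± 0.17 (SE, limma adjusted p = 0.0287), at 0.36 in embryo 1 and 1.20 in embryo 2, and the exact permutation of section labels gave p = 0.05. Its mean level was under 5 TPM, so it was named after its values were seen. Its late regions all stayed below 1 TPM, so it passed the filter on low values through the early group. The call was kept in 12 alternatives and lost in 13, counting the exact permutation. Its adjusted p in limma was 0.196 after quantile normalization, 0.470 on section means, 0.105 without the replicate block on embryo and 0.0828 with other-tissue markers as covariates. At SOX2 thresholds of 10 and 40 TPM it was 0.0900 and 0.228. It was 0.0794 without section 1 of embryo 1, and 0.197, 0.224, 0.116, 0.144 and 0.614 without section 1, 2, 3, 5 or 6 of embryo 2. Without the whole of embryo 2 the gene did not pass the filter on low values.

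With sections rather than regions as the unit, 1 gene passed, C4H6orf163, which is known by its open reading frame and was picked after its values were seen. It had 0 to 1.47 TPM in early regions (median 0.0712) and 0.236 to 90.8 TPM in late regions (median 3.10), and 13 of 17 late regions lay above every early one. The difference over regions was -2.22 ± 0.50 (SE, limma adjusted p = 0.120), and on section means -2.14 (adjusted p = 0.0154). It reached 1 TPM in 3 early and 13 late regions, so it passed the filter on low values through the late group.

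FOXA2, the forkhead factor of node and endoderm, came next among the organiser genes. It had 0 to 39.1 TPM in early regions (median 1.93) and 0 to 335 TPM in late regions (median 80.3), and 10 of 17 late regions exceeded every early one. The difference was -3.34 ± 0.67 (SE, 95% interval -4.69 to -1.99, limma adjusted p = 0.0590), at -1.76 in embryo 1 and -4.07 in embryo 2. FOXA2 passed the threshold in 11 alternatives and did not in 15. It passed without the 4 TFAP2A-rich regions (-3.52, limma adjusted p = 0.0154) and without the APOA1-rich pair (-3.47, adjusted p = 0.0131). It also passed after quantile normalization (-3.55, adjusted p = 0.0287). It did not pass on section means, without the replicate block on embryo or without embryo 2.

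CER1, a secreted inhibitor of NODAL, BMP and WNT, had a median of 3.71 TPM in early regions (0 to 190) and 172 TPM in late regions (0 to 945). The difference was -3.56 ± 0.79 (SE, limma adjusted p = 0.120), and -3.50 without the APOA1-rich pair (adjusted p = 0.0504). LHX1, a LIM homeobox factor of the organiser, had medians of 14.8 TPM early and 191 TPM late, a difference of -3.23 ± 0.79 (adjusted p = 0.159), and -3.46 without that pair (adjusted p = 0.0504). For both, the early regions reached into the late range: sector 3 of section 3 in embryo 2 had 190 TPM of CER1 and 180 TPM of LHX1. FGF17, an FGF ligand, had the largest difference among the 28 tested genes of a panel of 29 developmental genes, at -3.79 ± 0.87 (limma adjusted p = 0.120), and -3.84 without that pair (adjusted p = 0.0504). Without the TFAP2A-rich regions the differences of CER1, LHX1 and FGF17 were -3.81, -3.28 and -3.82. Its medians were 9.05 TPM in early regions and 286 TPM in late regions, with 2210 TPM in sector 6 of section 6 in embryo 2.

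As a list, node and definitive endoderm genes had 13 of 15 differences below 0, against 7074 of 15232 over all genes. Of 18 listed genes, 15 passed the filter on low values, which a gene could pass through the late regions alone. Of these, 9 had an unadjusted p under 0.05 in limma and all 9 were lower in early regions, against 4.57% of all genes tested, and 1 of them, GSC, passed adjustment. The median difference of the list was -1.57, against 0.03 for all genes, and -0.97 in embryo 1 and -1.74 in embryo 2. On section means the count was 10 of 15, against 4.27% of all genes. Without the TFAP2A-rich regions it was 10 of 15, against 5.81% of all genes, with a median of -1.60. Without the APOA1-rich pair it was 10 of 15, against 4.27%, with a median of -1.78. The list was drawn up with earlier results of these data known, so its count is a description.

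Besides GSC, FOXA2 and CER1, the other genes of that count were picked after their values were seen. The BMP antagonist CHRD had a wide spread, with a median of 2.20 TPM in early regions (highest 11.2) and 27.3 TPM in late regions (highest 2557), a difference of -3.88 ± 0.91 (SE, limma adjusted p = 0.135). Without the APOA1-rich pair it was -3.63 and without the TFAP2A-rich regions -4.34. HHEX, a homeobox gene of anterior endoderm, had medians of 3.93 TPM early and 50.8 TPM late (-2.69), with 11 of 17 late regions above every early one. The chemokine receptor CXCR4 had medians of 7.22 TPM early and 50.6 TPM late (-2.50). The differences of FOXJ1, a regulator of motile cilia, and of NOTO, a homeobox gene of the notochord, were -1.88 and -1.24. NOTO was listed at 0 in all 4 early regions of embryo 1. In the early regions of embryo 2 its median was 0.251 TPM, so it passed the filter on low values through the late group. SOX17, a factor of definitive endoderm and of other lineages, had -1.57, with 0 to 69.0 TPM in early regions and 0 to 85.3 TPM in late regions. Its medians were 0.0300 TPM early and 5.09 TPM late in embryo 1, and 6.98 TPM early and 47.9 TPM late in embryo 2.

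In the mouse, FOXA2, HHEX, CER1, LHX1 and OTX2 are also known from visceral endoderm, the counterpart of the hypoblast. The summed level of 7 hypoblast and yolk sac endoderm markers ran from 2.72 to 2176 TPM in early regions (median 16.4) and from 4.74 to 3748 TPM in late regions (median 96.0), and 0 of the 7 were listed at 0 throughout either group. Of the 21 list genes tested, 1 had an unadjusted p under 0.05 in limma, against 8.34% of all genes: GATA6, with medians of 6.44 TPM early and 17.0 TPM late (-1.37, adjusted p = 0.511). The median difference of the list was -0.07. Without the APOA1-rich pair 3 of 20 were lower in early regions at that threshold, against 4.27% of all genes. They were APOA1 (-1.90), GATA6 (-1.48) and TTR (-0.96). Without the TFAP2A-rich regions 1 of 20 was lower, against 5.81% of all genes. Without the APOA1-rich pair, as given above, GSC was -2.78, FOXA2 -3.47 and the median of the node list -1.78. That omission left embryo 2 regions with up to 249 TPM of APOA1 in early sections and 193 TPM in late sections. Whether hypoblast cells contributed to these differences was not tested.

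Among WNT antagonists, DKK1 had 0 to 27.6 TPM in early regions (median 1.60) and 0 to 368 TPM in late regions (median 16.9), a difference of -2.24 ± 0.68 (SE, limma adjusted p = 0.344). Without the APOA1-rich pair it was -2.27 and without the TFAP2A-rich regions -2.34. The list of 13 tested genes had 4 lower in early regions at an unadjusted p under 0.05 (CER1, DKK1, DKK4 and SHISA2), against 4.57% of all genes. It had 1 higher, against 3.77%: NOTUM, an enzyme that inactivates WNT ligands, at 0.92. At the same threshold 4 were lower and 0 higher both without the TFAP2A-rich regions and without the APOA1-rich pair. The shares over all genes were 5.81% lower and 4.81% higher in the first case, and 4.27% and 3.68% in the second. The median difference of the list in the main comparison was -0.02. DKK4 was listed at 0 in 9 of 14 early regions and reached 1902 TPM in a late one. SHISA2 was high in most late regions, with 13 of 17 above the highest early region at 34.8 TPM, and its difference was -0.11 in embryo 1 and -2.94 in embryo 2. The Frizzled-related inhibitors SFRP1 and SFRP2 had differences of -0.48 and 0.31 with intervals that spanned 0 (-1.29 to 0.32 and -0.72 to 1.33).

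OTX2, the head homeobox gene that also marks epiblast, was present in all 31 regions. It had 11.5 to 101 TPM in early regions (median 73.8) and 6.83 to 737 TPM in late regions (median 175), with 12 of 17 late regions above every early one. The difference was -1.56 ± 0.42 (SE, 95% interval -2.41 to -0.71, limma adjusted p = 0.263), at -0.48 in embryo 1 and -2.05 in embryo 2. Without the 4 TFAP2A-rich regions it was -1.66 and passed the threshold (limma adjusted p = 0.0348), and without the APOA1-rich pair it was -1.43 (adjusted p = 0.378).

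HESX1 and ZIC2 had smaller differences. HESX1, a repressor needed for forebrain and pituitary, had medians of 13.3 TPM early and 31.1 TPM late (-0.96, 95% interval -1.97 to 0.05), and its difference was 1.09 in embryo 1 and -1.90 in embryo 2 (limma adjusted p = 0.675 for the difference between embryos). The zinc finger gene ZIC2 had -0.62. Of 20 listed anterior ectoderm genes 12 were tested, and 3 were lower in early regions at an unadjusted p under 0.05 in limma (OTX2, OTX1 and SIX3), against 4.57% of all genes, with a list median of -0.42. SIX3 reached 1 TPM in 2 early and 9 late regions, so it passed the filter on low values through the late group. After quantile normalization that count was 6, against 5.09% of all genes. It was 5 without the TFAP2A-rich regions, against 5.81%, and 3 without the APOA1-rich pair, against 4.27%.

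**Figure D3:**
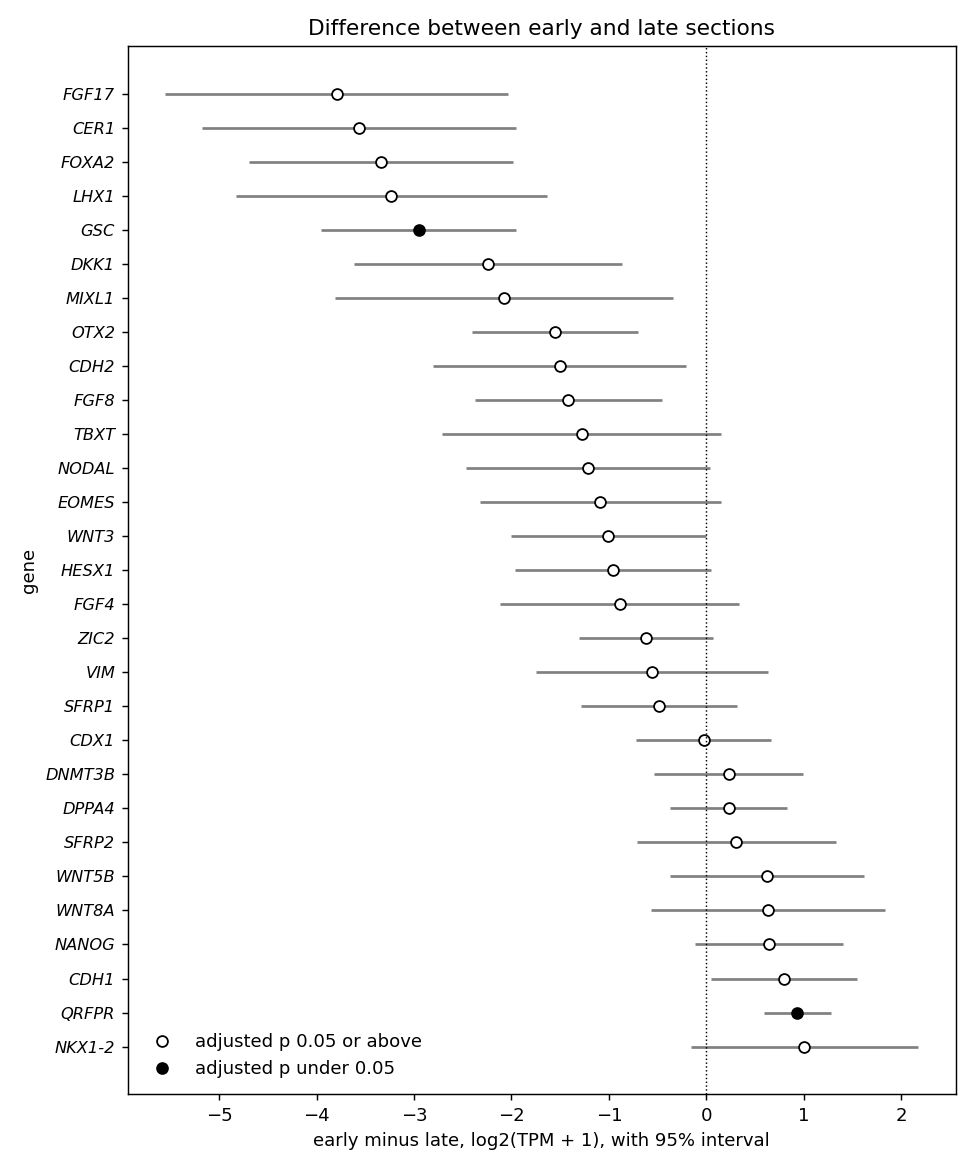
Difference between early and late sections in the 28 tested panel genes and QRFPR, as early minus late on the log2(TPM + 1) scale, with 95% intervals from limma. Filled points are the 2 genes with an adjusted p under 0.05, GSC at -2.95 and QRFPR at 0.93, and genes left of the dotted line had lower values in early sections.

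The brachyury gene TBXT, which is needed for mesoderm to form, had its highest values in early regions: embryo 2 had 111 TPM in section 3 sector 1 and 99.2 TPM in section 2 sector 3, above the late maximum of 54.1 TPM. The medians were nevertheless 0.556 TPM early and 7.24 TPM late, a difference of -1.28 ± 0.70 (SE, 95% interval -2.71 to 0.15). GSC in those 2 TBXT-rich early regions stood at 4.49 and 1.33 TPM. In the late region with the most TBXT, sector 5 of section 6, GSC was 35.3 TPM.

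EOMES, a T-box gene of streak and endoderm, had medians of 51.9 TPM early and 146 TPM late (-1.09 ± 0.61), and MIXL1, a homeobox gene of mesendoderm, 4.64 and 17.2 TPM (-2.07 ± 0.85, limma adjusted p = 0.526). The ligand NODAL, which induces the streak, had medians of 2.22 TPM early and 8.83 TPM late (-1.22, 95% interval -2.47 to 0.03). FGF8, an FGF ligand of the streak, had -1.42 ± 0.47 and FGF4 -0.89 ± 0.60. WNT3 had medians of 6.78 and 18.8 TPM in early and late regions (-1.004 ± 0.49). Of 21 tested genes of the streak and nascent mesoderm list, 6 had an unadjusted p under 0.05, each lower in early regions, against 4.57% of all genes, with a median of -0.89. The count was 6 without the TFAP2A-rich regions, against 5.81% of all genes, and 8 without the APOA1-rich pair, against 4.27%. The 6 of the main comparison are FGF17, LHX1, GSC, MIXL1, FGF8 and WNT3, of which GSC is in the node list too.

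MESP1, which marks the first mesoderm, had medians of 4.65 TPM in early regions and 0 TPM in late regions (0.82, limma adjusted p = 0.740), and TBX6, a factor of paraxial mesoderm, had medians of 1.84 and 1.96 TPM (-0.04). WNT8A and WNT5B, ligands of the posterior embryo, had differences of 0.63 and 0.63, each with 3 early regions above the late maximum. NKX1-2, a marker of axial progenitors, had 15.4 TPM early and 7.29 TPM late as medians (1.01, 95% interval -0.16 to 2.17). CDX1, a posterior homeobox gene, had -0.03. Of 19 HOX genes tested 0 passed adjustment and 0 had an unadjusted p under 0.05 in limma, against 8.34% of all genes. Without the TFAP2A-rich regions 1 of 15 was higher in early regions at that threshold, against 4.81% of all genes.

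**Figure D4:**
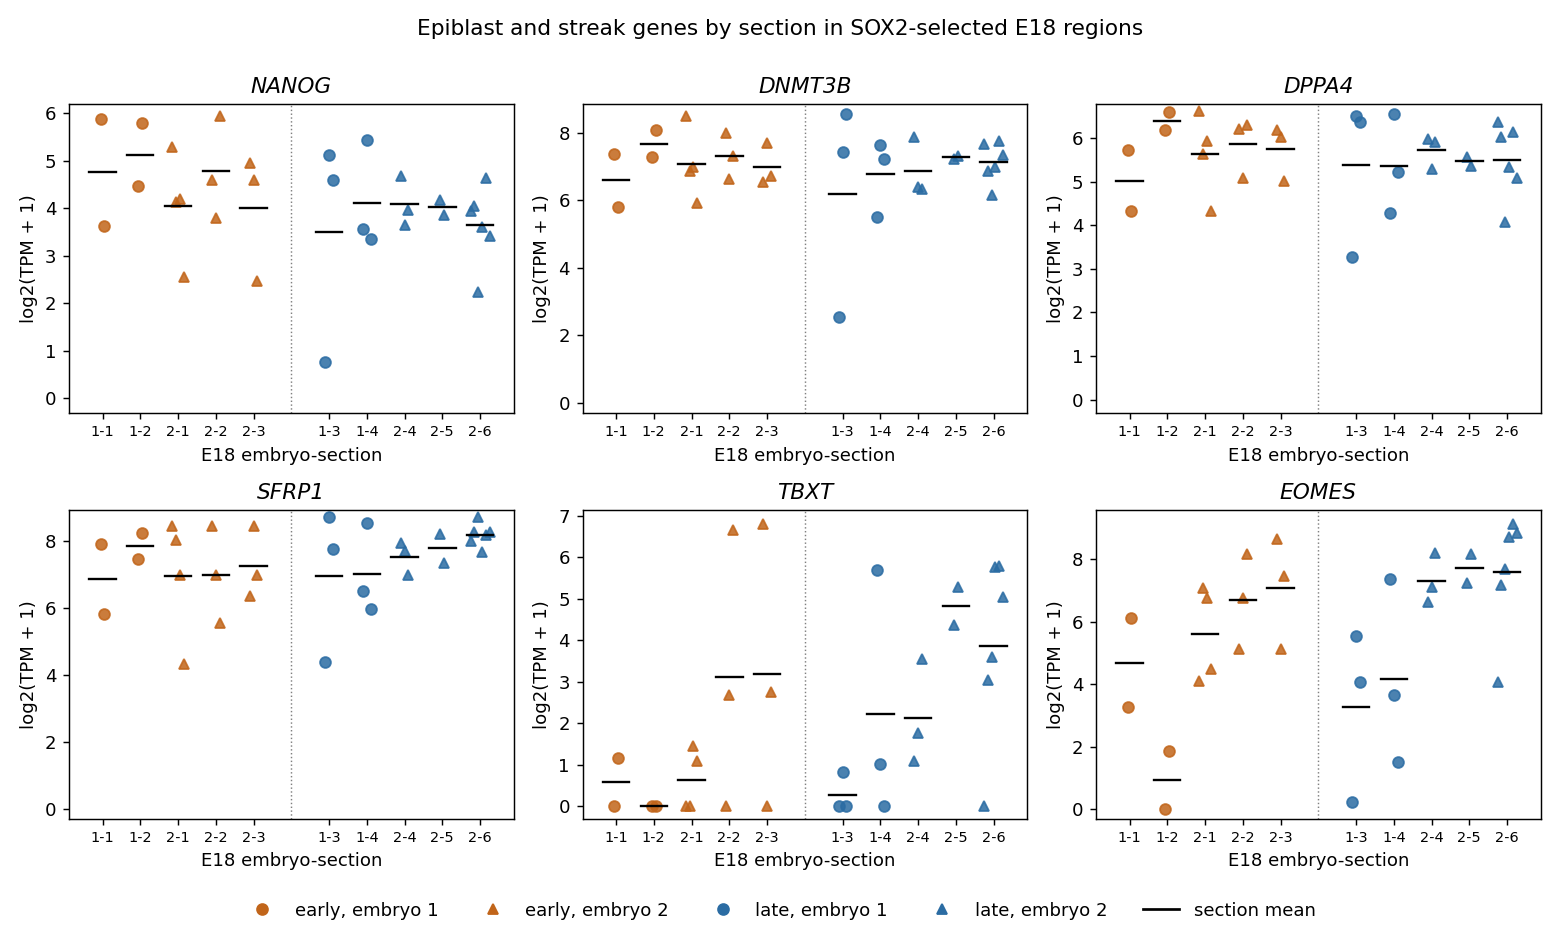
Levels of the epiblast genes NANOG, DNMT3B and DPPA4, the WNT inhibitor SFRP1 and the streak genes TBXT and EOMES as log2(TPM + 1) by E18 embryo and section, early left of the dotted line and late right. Points are regions (circles embryo 1, triangles embryo 2) and bars are section means. The epiblast genes overlap between the sides, and the 2 highest TBXT values, 111 and 99.2 TPM, are in early sections of embryo 2.

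Differences of the tested epiblast genes lay between -0.37 and 0.81. NANOG, a core pluripotency factor, had 4.56 to 60.7 TPM in early regions (median 22.2) and 0.704 to 42.6 TPM in late regions (median 14.4), a difference of 0.64 ± 0.38 (SE, 95% interval -0.12 to 1.40). DPPA4, a chromatin protein of pluripotent cells, had 0.23 (-0.37 to 0.83) and DNMT3B 0.23 (-0.54 to 0.99). TDGF1, the NODAL co-receptor, had medians of 120 TPM early and 158 TPM late (-0.37), and LIN28A, an RNA-binding protein, 288 and 283 TPM (-0.02). Of 15 tested epiblast genes 0 passed adjustment and 0 had an unadjusted p under 0.05 in limma, against 8.34% of all genes, with a list median of 0.16. Without the TFAP2A-rich regions 1 of 15 was lower in early regions at that threshold, against 5.81% of all genes.

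The cadherins had differences of opposite sign. CDH1, the epithelial cadherin, had 3.02 to 45.8 TPM in early regions (median 20.2) and 0.749 to 24.6 TPM in late regions (median 11.4), a difference of 0.80 ± 0.37 (SE, limma adjusted p = 0.579). CDH2, the cadherin of mesenchymal and neural cells, had medians of 19.95 TPM early and 150 TPM late (-1.51 ± 0.64, adjusted p = 0.540). Both stayed above the threshold, with unadjusted p values of 0.0387 and 0.0243. VIM, an intermediate filament gene, had -0.56 (-1.75 to 0.64). Of 16 epithelial junction genes tested, 1 was higher and 2 were lower in early regions at an unadjusted p under 0.05 in limma. Of 14 mesenchymal transition genes, 0 were higher and 1 was lower. The shares over all genes were 3.77% and 4.57%. The list medians were 0.02 and -0.15. Without the TFAP2A-rich regions the junction counts were 1 and 1 and the transition counts 0 and 1, against 4.81% and 5.81%. Without the APOA1-rich pair both lists kept their counts, against 3.68% and 4.27%.

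Amnion genes had mostly positive differences, 14 of 19. The summed level of 5 amnion markers was 16.8 to 374 TPM in early regions (median 50.9) and 5.89 to 209 TPM in late regions (median 29.7). Of 19 list genes tested, 2 were higher in early regions at an unadjusted p under 0.05 in limma, against 3.77% of all genes: VTCN1, an immune checkpoint ligand of amnion, at 1.01 and the keratin KRT7 at 1.304. The list median was 0.45, but -0.24 in embryo 1 and 0.52 in embryo 2. Without the TFAP2A-rich regions the count was 4 of 17, against 4.81% of all genes, and without the APOA1-rich pair 2 of 19, against 3.68%. Mesenchyme markers had nearly equal medians of summed level, 16.6 TPM in early regions and 16.1 TPM in late regions. Of 20 list genes, 0 had an unadjusted p under 0.05 in limma, against 8.34% of all genes. The list median was 0.12, but -0.96 in embryo 1 and 0.52 in embryo 2. Without the TFAP2A-rich regions 1 mesenchyme gene was higher and 2 were lower in early regions at an unadjusted p under 0.05. The shares over all genes were 4.81% and 5.81%.

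The next comparison asked whether the early minus late difference was the same in both embryos. Of 15232 genes, 0 passed adjustment (limma, embryo by position term, 0%), with 1105 at an unadjusted p under 0.05 (7.25%). For GSC the difference in embryo 1 minus that in embryo 2 was 0.98 (adjusted p = 0.850) and for OTX2 it was 1.57 (adjusted p = 0.701). With 10 regions in embryo 1, a failure to pass does not show that the embryos were alike. Without section 4 of embryo 1, 91 genes passed.

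The last comparison set the SOX2-selected regions against the other E18 regions. GSC in those had 0 to 5.02 TPM in early sections (median 0) and 0 to 82.3 TPM in late sections (median 2.49). The early minus late difference in the SOX2-selected regions minus that in the others was -0.98 ± 1.01 (SE, 95% interval -3.02 to 1.05, limma adjusted p = 0.896). For OTX2 it was 1.28 (-1.003 to 3.56) and for FOXA2 -0.40 (-2.92 to 2.12). No gene passed adjustment (0 of 15232, limma), and 951 had an unadjusted p under 0.05 (6.24%). The low GSC of early sections was therefore not shown to be particular to the SOX2-selected regions.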

How the data were processed

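The authors deposited 1 table of TPM values, with 17023 genes and a column for each of 86 regions. Per the submitters' processing notes, fastp, HISAT2 and StringTie were used. Their versions, the genome build and the annotation were not given in the sources used here. No coordinate or sequence is stated for this reason. Columns sum to 495547 to 777988 TPM, and depth is unknown because TPM keeps no counts. In the 31 regions used, ACTB and GAPDH were never listed at 0.

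Genes at 1 TPM or more in at least 5 of the 31 regions were analysed as log2(TPM + 1), a scale that understates the change of low genes. Early was compared with late in limma 3.58.1 (R 4.3.3, moderated with a trend). Embryo was a block, because each embryo gave early and late sections. P-values were adjusted by Benjamini-Hochberg over all genes tested, with a threshold of 0.05. The fit was tested on simulated data whose regions were drawn independently, with no section effect. That test cannot address dependence between regions of a section. Single values were compared by exact permutation of section labels within embryo (numpy 2.4.6).

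Named genes are called genes with a mean of at least 5 TPM and the same sign in both embryos, called list members, and a panel of 29 genes, with 1 further panel gene not reported here. Any other gene was named after its values were seen. The regions, the panel and the 30 gene lists were chosen with earlier results of these data known. The alternatives are given in the closing section. Those without TFAP2A-rich regions (20 TPM or more) or APOA1-rich regions (1000 TPM or more), and the permutation for GSC and QRFPR, were added after seeing the data.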

Additional observations from a re-analysis of the deposited data

How the results depend on the processing

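Of 851 alternative values, 774 kept direction and side of the threshold or, for counts of genes, stayed at 0 or within 1.5 times. Of the others, 23 newly passed the threshold, 20 no longer passed it, 20 counts moved by more than that and 14 values turned in sign. The cause of these changes was not tested. GSC lost its call in 7 alternatives and kept it in 20, and QRFPR lost it in 13 and kept it in 12. Against 2 genes called in limma, a stricter filter (5 TPM in 10 regions) gave 1, quantile normalization 16, removal of mitochondrially encoded genes 4, section means 1 (C4H6orf163), an estimated correlation within sections 14, a SOX2 threshold of 10 TPM 1 and of 40 TPM 5. Without TFAP2A-rich regions 8 genes passed and without APOA1-rich regions 5. With no replicate block on embryo 0 passed (950 at an unadjusted p under 0.05). The block rests on the labels, since early and late sections came from the same embryo. Leaving out an embryo or section gave 0 to 16 genes: 13 without embryo 1, 14 without its section 3, 16 without section 4 of embryo 2, and 0 without embryo 2 or its section 1, 2, 5 or 6. The same omissions gave 0 to 91 genes for the difference between embryos, and 0 for that between region classes in every alternative run. GSC stayed between -4.20 and -2.28 throughout, where -4.20 is on the log2(TPM + 0.1) scale and so is not directly comparable with the others.

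Among values that changed sign, CDX1 was 0.14 on section means, 0.070 with no replicate block and -0.33 to 0.23 over omissions. With other-tissue covariates DPPA4 was -0.094 and SFRP2 -0.0059. Over omissions HESX1 ranged from -1.90 to 1.09 and SFRP1 from -0.88 to 0.38. The difference in genes detected was -143 at a SOX2 threshold of 40 TPM, -45.9 at a detection level of 5 TPM and -121 to 434 over omissions, and that in mitochondrial share -5.02 to 2.12 points over omissions. Unknown depth limits every low value.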

Other observations

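Replication genes had mostly positive differences, early minus late. Of 18 S phase genes tested, 15 lay above 0, against 8158 of 15232 over all genes. At an unadjusted p under 0.05 in limma 4 were higher in early regions, against 3.77% of all genes, with a list median of 0.44 against 0.03 over all genes. GINS2, a subunit of the replicative helicase complex, had 17.0 to 139 TPM in early regions (median 81.7) and 8.04 to 89.1 TPM in late regions (median 40.01), a difference of 0.98 (adjusted p = 0.406). The other 3 were CDC6 at 0.57, CCNE1 at 0.57 and MCM4 at 0.56. The list median was 0.88 in embryo 1 and 0.13 in embryo 2. Without TFAP2A-rich regions the count was 9, against 4.81% of all genes, and without APOA1-rich regions it was 1, against 3.68%.

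The angiogenic ligand gene VEGFA and its receptor gene KDR had differences of opposite sign. VEGFA had medians of 22.3 TPM in early regions and 46.9 TPM in late regions (-1.12, limma adjusted p = 0.172), and KDR 15.8 and 7.10 TPM (1.5004, adjusted p = 0.298). CYP26A1, which degrades retinoic acid, had medians of 76.7 TPM early and 135 TPM late (-0.99, adjusted p = 0.533). CGA, a hormone subunit gene of trophoblast, stood at 4737 TPM in embryo 1 section 2 sector 1, an early region rich in TFAP2A, against 249.5 TPM or less in the other 30 regions. These genes were picked after their values were seen.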
